A study of Mus musculus with 2 samples.

Results

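The genes described here are 32 effector genes that neurons switch on after electrical activity, taken as a named list and found by symbol in both count tables of ribosome-bound RNA from the mouse dentate gyrus. All 32 were present among the 32531 gene symbols of the tables. The list was drawn up with earlier results on these libraries in view, and those results included differences between the 2 libraries. The differences between the libraries given below therefore describe the genes and do not test them. Both libraries are pull-downs from adult Lypd1-TRAP OI82 mice, which carry the ribosomal protein Rpl10a tagged with EGFP. In a line of this kind the tag is driven by regulatory sequence of the gene named, here Lypd1, so the cells it marks depend on where that sequence is active. They received no treatment, and the labels give neither sex, exact age nor whether animals were pooled. The 2 libraries form 1 group and are told apart as replicate 1, the first library, and replicate 2, the second. There is no second group to compare them with, so no test was run, and the spread between the libraries may be technical.

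When a neuron fires, calcium enters through NMDA receptors and voltage-gated channels and activates kinases that phosphorylate transcription factors already present, such as CREB and the partners of SRF. These switch on a first set of genes within minutes. Some of that set encode further transcription factors, while others, called effectors, act directly on synapses, signalling enzymes, RNA or chromatin. The list described here is wider than that definition. Of its 32 genes, 11 are grouped under transcription and its co-regulators, some of them transcription factors. The name effector genes is used below for the whole list. In the dentate gyrus, granule neurons fire sparsely, so messages such as Arc mark the small share of cells that were recently active. In bulk RNA, more active cells and more message per active cell cannot be told apart.

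Promoters of these genes often carry letters that activity-regulated factors recognise. RefSeq promoter windows (GRCm38.p6), each reaching from 250 bases before to 50 bases after a gene's start, were at hand for 23 of the 32 genes. Arc, Nrn1, Sik1, Trib1, Mapk4, Rasd1, Bhlhe40, Crem and Ier2 had no entry. The 6 windows below are shown because they hold a CREB-type or bHLH-type motif in genes whose levels differed between the libraries by very different amounts. Capitals mark exact matches on either strand to the cAMP response element (CRE, TGACGTCA), its shorter core TGACG, the E-box CACGTG or the TATA motif TATAAA.
Plk2, chr13:110394794-110395093, plus strand: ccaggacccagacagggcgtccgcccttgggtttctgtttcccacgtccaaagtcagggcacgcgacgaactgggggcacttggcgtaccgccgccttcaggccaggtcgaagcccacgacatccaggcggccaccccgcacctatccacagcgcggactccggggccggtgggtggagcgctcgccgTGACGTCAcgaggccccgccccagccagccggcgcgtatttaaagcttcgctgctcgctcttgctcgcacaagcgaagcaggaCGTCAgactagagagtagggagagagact
Btg2, chr1:134079106-134079405, minus strand: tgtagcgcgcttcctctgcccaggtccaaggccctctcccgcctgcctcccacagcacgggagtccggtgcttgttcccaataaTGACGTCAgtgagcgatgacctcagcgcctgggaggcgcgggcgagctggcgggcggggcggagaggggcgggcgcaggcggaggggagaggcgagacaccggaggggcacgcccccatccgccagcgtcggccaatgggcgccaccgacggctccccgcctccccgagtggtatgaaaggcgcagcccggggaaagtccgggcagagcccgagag
Ptgs2, chr1:150099781-150100080, plus strand: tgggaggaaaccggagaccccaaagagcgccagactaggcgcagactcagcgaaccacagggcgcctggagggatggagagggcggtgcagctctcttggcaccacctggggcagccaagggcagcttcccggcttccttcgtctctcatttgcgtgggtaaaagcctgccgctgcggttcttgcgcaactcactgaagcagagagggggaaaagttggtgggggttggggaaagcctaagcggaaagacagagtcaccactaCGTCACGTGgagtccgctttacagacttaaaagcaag
Bhlhe41, chr6:145865371-145865670, minus strand: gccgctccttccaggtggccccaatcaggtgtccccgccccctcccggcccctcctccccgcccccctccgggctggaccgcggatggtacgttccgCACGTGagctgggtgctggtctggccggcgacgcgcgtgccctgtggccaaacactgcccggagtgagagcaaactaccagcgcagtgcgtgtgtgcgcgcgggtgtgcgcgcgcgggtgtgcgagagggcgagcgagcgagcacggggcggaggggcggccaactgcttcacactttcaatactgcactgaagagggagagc
Gadd45b, chr10:80929841-80930140, plus strand: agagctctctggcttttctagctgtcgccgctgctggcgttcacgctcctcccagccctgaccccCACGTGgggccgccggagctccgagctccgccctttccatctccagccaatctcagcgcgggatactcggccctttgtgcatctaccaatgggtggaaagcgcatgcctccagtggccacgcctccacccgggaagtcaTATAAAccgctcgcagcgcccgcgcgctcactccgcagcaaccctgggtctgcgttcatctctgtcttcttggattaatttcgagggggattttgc
Gadd45g, chr13:51846425-51846724, plus strand: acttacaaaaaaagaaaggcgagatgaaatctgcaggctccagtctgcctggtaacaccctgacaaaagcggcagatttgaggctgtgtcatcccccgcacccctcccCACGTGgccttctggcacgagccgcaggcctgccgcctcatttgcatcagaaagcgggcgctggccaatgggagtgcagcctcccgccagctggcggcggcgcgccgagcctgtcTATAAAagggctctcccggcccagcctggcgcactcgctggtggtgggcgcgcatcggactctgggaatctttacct

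The full CRE was found in 3 of the 23 genes, Plk2, Btg2 and Maff, against 2.03% of all 27025 genes with a window. In Plk2 it lay at bases 189 to 196 of the window and in Btg2 at bases 85 to 92. The core TGACG, which each full CRE also contains, was found in 11 of 23 genes against 23% of all genes. The E-box CACGTG was found in 6 of 23, Ptgs2, Pim1, Bhlhe41, Maff, Gadd45b and Gadd45g, against 8.09%. In Ptgs2 the core, read on the opposite strand, overlaps the E-box by 2 bases. The EGR motif GCGTGGGCG was found in Maff and Ifrd1 (0.707% of all genes) and the AP-1 motif TGANTCA in Csrnp1 only (8.97%). TATAAA was found in 3 of 23 genes, Gadd45b, Gadd45g and Cyr61, against 15.7%, and the CArG box, the site of SRF, in none against 1.81%. The windows of these genes held a median of 20 CG dinucleotides against 7 over all windows, and the CRE, its core, the E-box and the EGR motif each contain at least 1. Some genes have several windows (5 of the 23), and a gene counted once if any window matched. A match describes the letters and not binding.

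Replicate 1 held 31309643 counts on gene lines and replicate 2 held 32711412. Levels are counts per 1000000 counts of these totals (CPM). Across the 19219 symbols with a count, Pearson's r between the libraries was 0.984 on the log2(CPM + 1) scale. Genes are not independent replicates. Differences are log2 ratios of replicate 2 to replicate 1 on library totals scaled by the TMM method, with a prior count of 2. Their 95% intervals cover counting error only and are taken from the counts without the prior. Of the 32 genes, 29 reached a mean of 1 CPM, and 28 reached it in each library. Ier3 passed through replicate 1 alone, and Ier2, Cyr61 and Maff stayed below the minimum.

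Most of the effector genes were higher in replicate 2. The summed level of all 32 was 1350 CPM in the first library and 4381 CPM in the second, a ratio of 3.25. Of the 29 genes at 1 CPM or more, 17 passed 2-fold towards replicate 2, against 4.51% of 13089 genes, and 1 passed 2-fold towards replicate 1, against 5.75%. At 1.5-fold the counts were 21 (12.6% of all genes) and 1 (14.3%). Among genes at a mean of 10 CPM or more they were 12 of 18 (2.18%) and 0 (1.01%) at 2-fold. Ratios above 0 were found in 25 of the 29, against 49.2% of all genes. The median of the 29 log2 ratios was 1.48 against -0.01 over all genes at that level. Since the genes were chosen with such ratios known, nothing is read from these shares. The 17 genes had log2 ratios from 1.28 to 3.40 and the other 12 from -1.11 to 0.89. The ratios nearest to that bound of 2-fold were 1.28 for Sik1 and Nrn1, which passed it, and 0.89 for Nfil3, which did not.

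**Figure D1:**
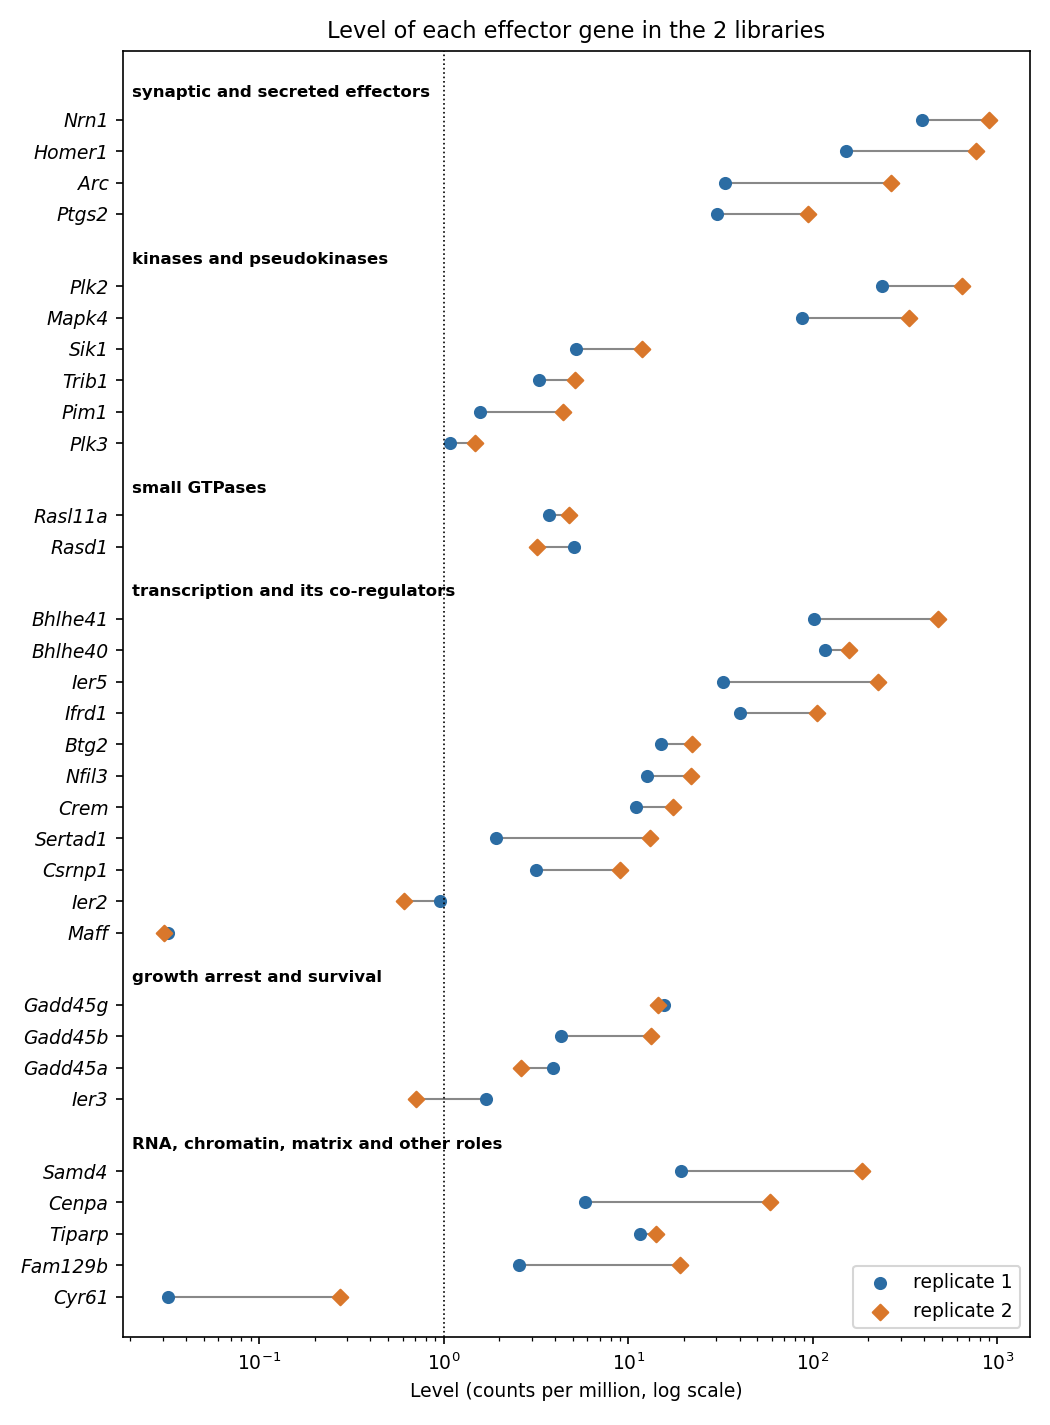
Level of each of the 32 effector genes, grouped by role, in CPM on a log axis. Circles are replicate 1 and diamonds replicate 2, and the dotted line marks 1 CPM. Arc runs from 33.2 to 265 CPM, while Gadd45g holds at 15.7 and 14.4 CPM.

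Nrn1, Homer1, Plk2, Bhlhe41 and Mapk4 together held 71.6% of the summed CPM in replicate 1 and 71.0% in replicate 2. This is a share of counts, which longer transcripts gather more of. Levels of the effector genes were ranked in CPM per kilobase of exon (GENCODE M21). On that scale Nrn1 led at 286 ± 158 (SD, n = 2), followed by Plk2 at 97.7 ± 63.8 and Arc at 48.7 ± 53.5. Bhlhe41 (42.8 ± 39.2), Ier5 (39.5 ± 41.8), Mapk4 (38.9 ± 32.1) and Homer1 (38.4 ± 36.4) came next. From Arc on, the order does not exceed the spread. The place of Arc rests on replicate 2, at 86.6 CPM per kilobase against 10.9 in replicate 1. Bhlhe40 stood at 24.8 in replicate 1, above Arc, and at 33.5 in replicate 2.

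All 4 synaptic and secreted effectors were more than 2-fold higher in replicate 2, against 4.51% of all genes at 1 CPM or more. Arc, on chromosome 15 (74669083 to 74672570, minus strand, GRCm38), encodes a protein that removes AMPA receptors from synapses and whose message travels into dendrites. It was counted 1040 times in replicate 1 and 8655 times in replicate 2, which is 33.2 and 265 CPM. The log2 ratio was 3.08 (95% counting interval 2.99 to 3.18), or 8.48-fold. Of the 200 other genes nearest to Arc in mean level, 2 passed 2-fold towards replicate 2 and 1 towards replicate 1, and the ratio of Arc lay at percentile 99.5 among them.

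Homer1, on chromosome 13 (93299635 to 93405129, plus strand), encodes a postsynaptic scaffold that ties metabotropic glutamate receptors to internal calcium stores. Its short form, induced by activity, uncouples that scaffold, but the counts sum all forms over 11976 bases of exon. Homer1 stood at 151 CPM in the first library and 767 CPM in the second (log2 ratio 2.43, 2.39 to 2.48). Nrn1, on chromosome 13 (36725361 to 36735131, minus strand), encodes neuritin, a surface-anchored protein that promotes neurite growth and synapse maturation. It stood at 391 and 894 CPM (1.28, 1.25 to 1.32). This smallest ratio of the group came with its highest level, and 22.3% of the exon bases of Nrn1 overlap Fars2 on the opposite strand. Ptgs2, which encodes cyclooxygenase 2, the inducible enzyme of prostaglandin synthesis, stood at 30.3 and 94.6 CPM (1.73, 1.63 to 1.84). No gene of similar level exceeded its ratio, while Homer1 and Nrn1 lay at percentiles 99.5 and 99.

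**Figure D2:**
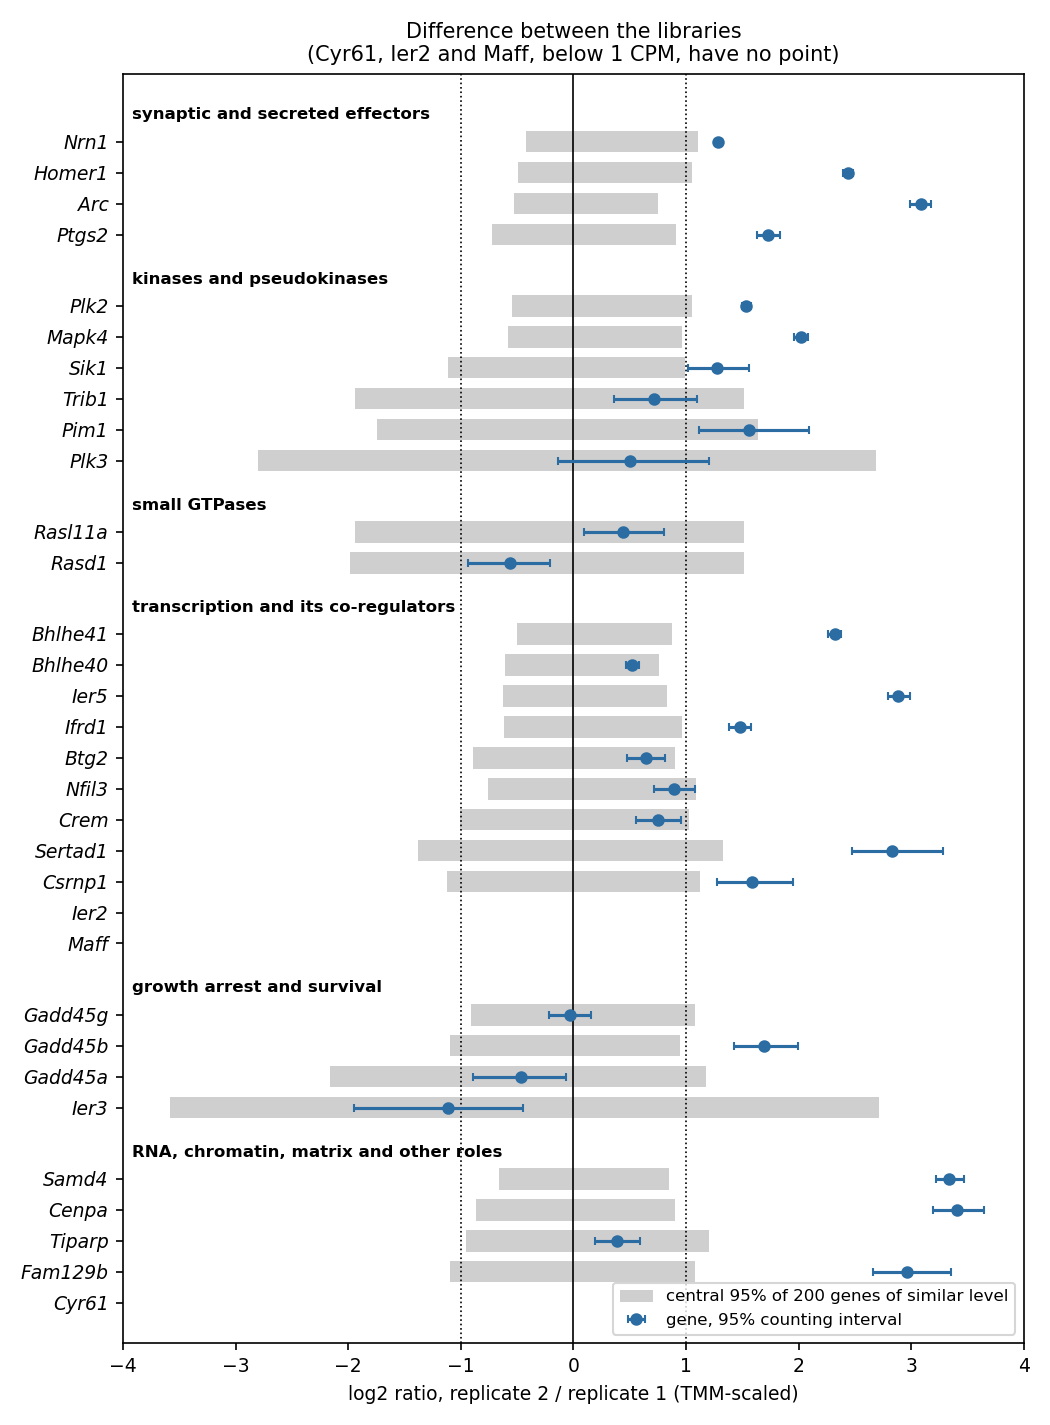
Log2 ratio of replicate 2 to replicate 1 for the 29 effector genes at a mean of 1 CPM or more, grouped by role. Points carry the 95% counting interval and grey bars span the central 95% of the 200 other genes nearest in level. Arc at 3.08 lies beyond its bar, whose upper end is 0.75, and Plk3 at 0.50 lies within a bar that reaches 2.69.

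All 6 kinases and pseudokinases were higher in replicate 2, and 4 of them at least 2-fold. Over all genes at 1 CPM or more these shares were 49.2% and 4.51%. Plk2, a polo-like kinase that marks a spine scaffold for breakdown and so weakens synapses after long activity, lies on chromosome 13 (110395046 to 110400844, plus strand). It stood at 236 CPM in the first library and 641 CPM in the second (log2 ratio 1.53, 1.496 to 1.573). Its relative Plk3, known from stress responses, was near the detection minimum at 1.09 and 1.47 CPM (0.50, -0.14 to 1.20), and its interval holds 0. Per kilobase of exon, Plk2 was at 122 times the level of Plk3 in replicate 1 and at 246 times in replicate 2. That change of 1.01 on the log2 scale (exact interval 0.33 to 1.67) does not depend on how the libraries are scaled.

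Mapk4, an atypical MAP kinase, stood at 87.2 and 333 CPM (log2 ratio 2.02, 1.96 to 2.08), the largest ratio among the kinases. No gene of similar level exceeded it. Sik1, a salt-inducible kinase that restrains CREB by phosphorylating its coactivators, stood at 5.17 and 11.9 CPM (1.28, 1.02 to 1.56). Pim1, a kinase controlled mainly by its amount, stood at 1.57 and 4.43 CPM (1.56, 1.12 to 2.09), and Trib1, a pseudokinase adaptor for protein breakdown, at 3.29 and 5.11 CPM (0.72, 0.36 to 1.10). Sik1 exceeded every gene of its level, while Pim1 lay at percentile 97 and Trib1 at percentile 89. Exon bases of Pim1 overlap an antisense gene over 14.5%.

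The 2 small GTPases stayed low in both libraries. Rasd1, first known as a gene induced by glucocorticoid, stood at 5.08 CPM in the first library and 3.21 CPM in the second (log2 ratio -0.56, -0.94 to -0.20). Rasl11a stood at 3.70 and 4.74 CPM (0.44, 0.09 to 0.81). Both lay well inside the range of genes of similar level, at percentiles 33 and 84.

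Among 11 genes of transcription and its co-regulators, 9 reached a mean of 1 CPM. All 9 were higher in replicate 2, against 49.2% of all genes at that level, and 5 of them at least 2-fold, against 4.51%. Bhlhe40 and Bhlhe41 encode closely related repressors that bind E-boxes and feed back on the circadian clock. Bhlhe41, on chromosome 6 (145858243 to 145865558, minus strand), stood at 101 CPM in the first library and 474 CPM in the second (log2 ratio 2.32, 2.26 to 2.38). Bhlhe40, also on chromosome 6 (108660629 to 108666925, plus strand), had a level of 117 and 158 CPM (0.52, 0.46 to 0.59). The pair thus changed places: per kilobase of exon, Bhlhe41 was at 0.607 times the level of Bhlhe40 in replicate 1 and at 2.11 times in replicate 2. The change of the count ratio was 1.80 on the log2 scale (exact interval 1.71 to 1.88). Of the exon bases of Bhlhe41, 19.05% overlap a predicted gene on the opposite strand.

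Of the immediate early response genes named Ier, Ier5 and Ier2 also split. Ier5, a regulator of protein phosphatase and heat shock factor, is a single-exon gene on chromosome 1 (155096361 to 155099636, minus strand). It stood at 32.5 and 226 CPM (log2 ratio 2.89, 2.79 to 2.99), and no gene of similar level exceeded it. Ier2, a nuclear protein gene, had 30 and 20 counts, which is 0.958 and 0.611 CPM (-0.51, -1.45 to 0.31). Per kilobase of exon, Ier5 was at 15.8 times the level of Ier2 in replicate 1 and at 172 times in replicate 2, a change of 3.45 on the log2 scale (2.57 to 4.34).

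Ifrd1, a co-repressor that works with histone deacetylases, stood at 40.4 and 106 CPM (log2 ratio 1.48, 1.39 to 1.57). Sertad1, a regulator of cyclin-dependent kinase and E2F, stood at 1.92 and 13.1 CPM (2.83, 2.47 to 3.28). Csrnp1, a nuclear protein gene, stood at 3.16 and 9.02 CPM (1.58, 1.27 to 1.95). These 3 genes lay at percentiles 99.5, 100 and 98.5 of genes of similar level.

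The other 3 of the 9 differed less. Nfil3, a leucine zipper repressor, stood at 12.6 and 21.9 CPM (log2 ratio 0.89, 0.72 to 1.08). Crem, whose short forms repress CRE-driven genes, stood at 11.0 and 17.4 CPM (0.75, 0.56 to 0.95), with all forms counted together. Btg2, which recruits the deadenylase that shortens messages, stood at 15.1 and 22.2 CPM (0.65, 0.48 to 0.82). Their percentiles were 95.5, 95.5 and 92.5, so each lay within the central range of its neighbours in level. Maff, a small Maf protein gene, had 1 count in each library, and its log2 ratio is bounded only to between -6.27 and 6.32.

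**Figure D3:**
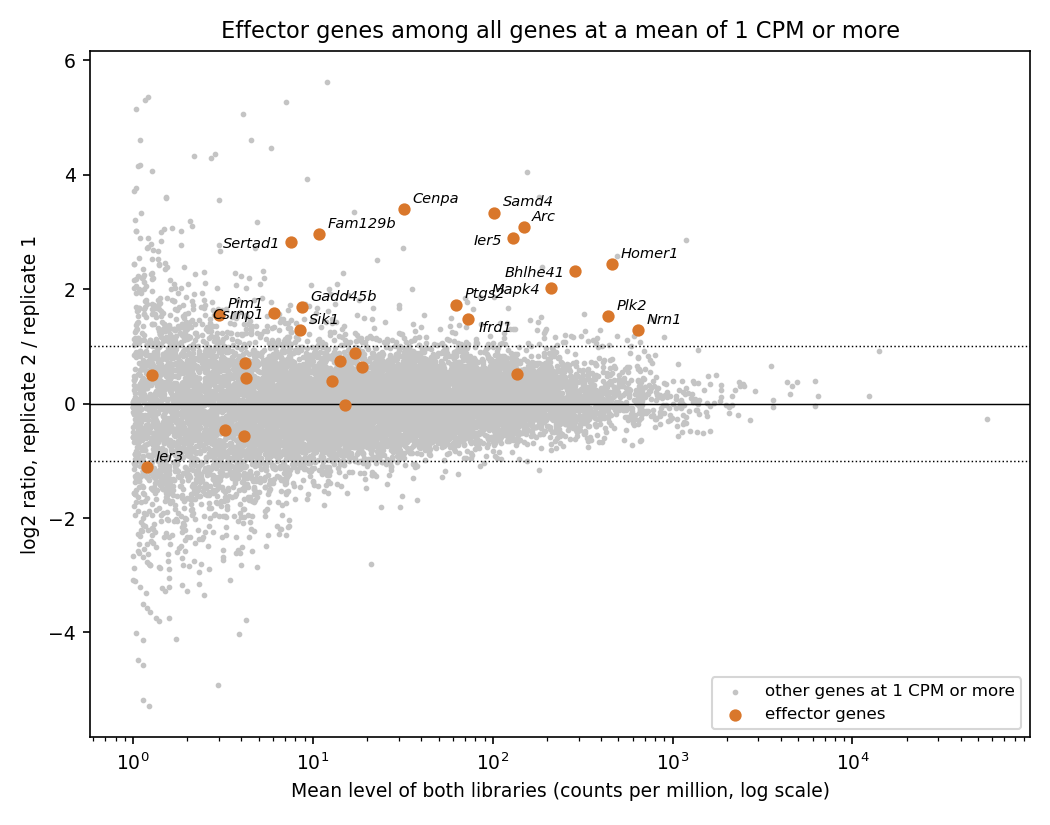
Log2 ratio of replicate 2 to replicate 1 against mean level (log axis) for all 13089 genes at a mean of 1 CPM or more. The 29 effector genes are in orange, named where they pass 2-fold (dotted lines). The 17 genes above the upper line span mean levels from 2.999 CPM (Pim1) to 643 CPM (Nrn1).

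The 3 Gadd45 genes differed from each other. They encode small stress-response proteins, and Gadd45b has been tied to activity-driven DNA demethylation and to adult neurogenesis in the dentate gyrus. Gadd45b, on chromosome 10 (80930073 to 80932204, plus strand), had a level of 4.31 CPM in the first library and 13.2 CPM in the second (log2 ratio 1.69, 1.42 to 1.99). Gadd45a stood at 3.90 and 2.63 CPM (-0.47, -0.89 to -0.07), with 19.1% of its exon bases shared with a gene on the opposite strand. Gadd45g stood at 15.7 and 14.4 CPM (-0.03, -0.21 to 0.16), and its ratio turned to 0.28 when exon length and GC were fitted out. Gadd45b lay at percentile 99.5 of genes of similar level, Gadd45a at 34 and Gadd45g at 58.

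Within each library, Gadd45b per kilobase was 0.203 times Gadd45g in replicate 1 and 0.674 times in replicate 2. The change of this count ratio was 1.73 on the log2 scale (1.39 to 2.08), against Gadd45a it was 2.18 (1.67 to 2.69), and between Gadd45g and Gadd45a it was 0.45 (-0.01 to 0.90). The promoter windows of Gadd45b and Gadd45g printed above both hold CACGTG and TATAAA. Any part of the promoters in the different ratios was not tested. Ier3, a survival gene, was the only effector gene at least 2-fold higher in replicate 1, at 53 and 23 counts or 1.69 and 0.703 CPM (-1.11, -1.95 to -0.44). Its log2 ratio of -1.11 became -0.95, short of 2-fold, once exon length and GC were fitted out. Of 200 genes of its level, 52 were also at least 2-fold higher in replicate 1, and its percentile was 22.8.

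The 2 largest ratios were among genes with other roles. Cenpa, the histone H3 variant of centromeres, on chromosome 5 (30666777 to 30674830, plus strand), had 183 and 1916 counts, which is 5.84 and 58.6 CPM (log2 ratio 3.40, 3.20 to 3.64). Samd4, an RNA-binding repressor of translation, on chromosome 14 (46882854 to 47105815, plus strand), had a level of 19.4 and 185 CPM (3.34, 3.22 to 3.47). Fam129b, a MAP kinase substrate now named Niban2, stood at 2.56 and 19.1 CPM (2.96, 2.66 to 3.35). No gene of similar level exceeded any of the 3. Tiparp, a mono-ADP-ribosyltransferase, stood at 11.5 and 14.1 CPM (0.39, 0.19 to 0.59). Cyr61, a matrix protein gene strongly induced in many cell types, had 1 and 9 counts (1.89, 0.35 to 8.65). At such counts the prior pulls the ratio towards 0: it is 3.71-fold with the prior, while the plain CPM ratio is 8.61.

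Compared gene by gene, 16 of the 29 genes lay above the central 95% of the 200 genes nearest in level, and none lay below it. Counting intervals lay wholly above 0 for 24 of the 29 genes, against 36.3% of all genes at that level, and wholly below 0 for 3 (Rasd1, Gadd45a and Ier3), against 36.7%. They held 0 for Plk3 and Gadd45g. Most genes of these libraries thus differ by more than counting error, and an interval clear of 0 does not set a gene apart. The 17 genes past 2-fold towards replicate 2 had a median level of 12.5 CPM per kilobase, taken over the means of both libraries. The other 12 had a median of 2.76 CPM per kilobase, against 4.77 over all genes. Median exon length was 4.58 kb in the 17 and 2.28 kb in the 12, against 4.71 kb over all genes at 1 CPM or more, of which 94.7% have a length. Median GC content was 52.3% and 52.7%, against 49.3%.

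Without a stated strand setting, reads from overlapping genes on opposite strands cannot be separated. In GENCODE M21, 13 of the 32 genes share some exon bases with a gene on the opposite strand, 4 of them at least 10%, and none with a gene on the same strand. Only Cenpa had a stretch of 100 bases or more at 95% identity in transcripts of other genes that lie elsewhere, over 4.07% of its longest transcript.

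Related gene lists were set beside the effector genes. Of 18 activity-regulated transcription factors, 16 reached 1 CPM, with a median log2 ratio of 0.70. Of these, 11 were higher in replicate 2, against 49.2% of all genes at that level. Past 2-fold towards replicate 2 were 6, against 4.51%, and none passed it the other way, against 5.75%. Atf3, a stress-responsive leucine zipper factor, stood at 0.319 and 13.8 CPM (5.27) and Egr3 at 304 and 2071 CPM (2.86). Atf3 reached the minimum through replicate 2 alone, with 10 counts in replicate 1 (counting interval 4.63 to 6.59). So did Egr2, also among the 6, with 24 and 107 counts (log2 ratio 2.10, 1.54 to 2.89). At the other end were Npas4, a factor specific to neuronal activity, at 4.82 and 2.35 CPM (-0.92), and Egr1 at 112 and 86.2 CPM (-0.29). Like the effector genes, this list thus held members on both sides of 0.

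Of 14 other activity-induced secreted and synaptic genes, all reached 1 CPM (median log2 ratio 1.13). In replicate 2, 12 were higher, against 49.2% of all genes at that level, and 8 of those at least 2-fold, against 4.51%. Inhba, the activin subunit, stood at 28.8 and 332 CPM (3.62), and Pcsk1, a protease that matures prohormones, at 0.990 and 8.83 CPM (3.17). Pcsk1 reached the minimum through replicate 2 alone, with 31 counts in replicate 1 (counting interval 2.71 to 3.83). Sorcs3 (-0.24), a sorting receptor, and Syt4 (-0.13), a vesicle protein, were the lowest.

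The 31 genes that carry the signal to CREB, SRF and MEF2 had a median log2 ratio of -0.04. All reached 1 CPM, 11 were above 0 and 20 below, against 49.2% above 0 over all genes at that level. Only 1 passed 2-fold, towards replicate 2, against 4.51%. That one was Rps6ka3, a kinase of CREB downstream of MAP kinase, at 74.8 and 156 CPM (1.15), followed by the CREB relative Atf1 (0.52). The CREB coactivator Crtc2 (-0.53) and Mef2d (-0.52) were the lowest. These lists were not tested either.

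**Figure D4:**
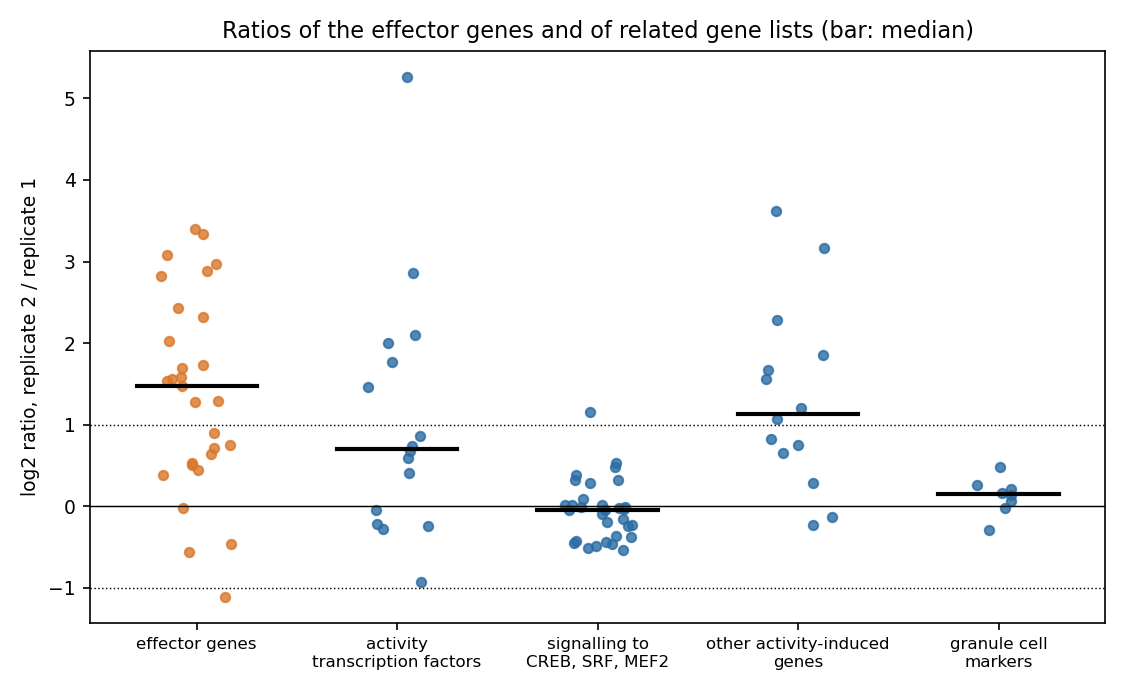
Log2 ratio of replicate 2 to replicate 1 for each gene at a mean of 1 CPM or more in 5 lists, with black bars at the medians and dotted lines at 2-fold. The effector genes have a median of 1.48, the signalling genes -0.04 and the granule cell markers 0.15.

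Cell markers were read in the same libraries. All 8 granule cell markers reached 1 CPM, with summed levels of 3667 and 3684 CPM and a median log2 ratio of 0.15, and none passed 2-fold. Prox1, the identity factor of these cells, stood at 1100 and 1193 CPM and Sema5a, a guidance protein, at 925 and 855 CPM. The summed level of GABAergic markers was 76.0 and 122 CPM (4 of 7 at a mean of 1 CPM, most counts on Gad1 and Gad2), and that of astrocyte markers 47.7 and 58.1 CPM (4 of 5, most counts on Slc1a3 and Aqp4). Oligodendrocyte precursor markers summed to 11.4 and 20.1 CPM (4 of 4, most counts on Pdgfra and Cspg4), and pericyte and smooth muscle markers to 16.0 and 17.0 CPM (3 of 4, most counts on Rgs5 and Pdgfrb). Those 4 sums were higher in replicate 2, and the next 3 were lower. Mossy cell markers summed to 55.2 and 33.9 CPM (2 of 5, most counts on Ajap1 and Calb2) and CA pyramidal cell markers to 122 and 95.8 CPM (5 of 5, most counts on Wfs1 and Mpped1). Endothelial markers summed to 21.05 and 18.59 CPM (5 of 5, most counts on Flt1 and Tek). Single markers at a mean of 1 CPM did not all follow these sums. Log2 ratios were above 0 in 2 GABAergic markers, Gad1 (0.69) and Gad2 (1.21), and below in 2, Sst (-0.44) and Lhx6 (-1.38). The higher GABAergic sum of replicate 2 thus lay mainly in Gad1 and Gad2. Below the minimum were Slc32a1 (22 and 12 counts), Pvalb (3 and 10) and Vip (5 and 5). For astrocytes and for oligodendrocyte precursors, 3 log2 ratios were above 0 and 1 below. Pericyte and smooth muscle markers had 1 above and 2 below (median -0.98), although their sum rose. Endothelial markers had 3 above and 2 below (median 0.16), although their sum fell. CA pyramidal markers had 1 above and 4 below. Some markers counted as below reached the minimum through replicate 1 alone. These were Acta2 of smooth muscle (63 and 2 counts), Lhx6 (67 and 24) and the endothelial Cldn5 (45 and 23). Past 2-fold towards replicate 2 were 2 oligodendrocyte precursor markers, 1 GABAergic and 1 astrocyte marker, against 4.51% of all genes. Towards replicate 1, 1 marker each passed it for mossy cells, GABAergic neurons, endothelial cells, and pericytes and smooth muscle, against 5.75%. No CA pyramidal marker passed it. Microglial markers summed to 2.24 and 2.14 CPM (0 of 6), and neither C1qa nor C1qb had a count. The part of these cell types in the higher effector levels of replicate 2 was not tested.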

How the data were processed

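Ribosome-bound RNA from the dentate gyrus was sequenced in 2 libraries of 1 group. The authors deposited raw whole-number counts, 1 line per gene symbol. The submitters' processing notes name the tools STAR 2.0.0e and HTSeq and the build mm10. Which annotation and strand setting applied is not given in the sources used here. Lines naming no gene were left out of the totals, which leaves 65.0% and 64.9% of counts. A count of 1 is 0.0319 and 0.0306 CPM.

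CPM was computed here from the totals on gene lines, without TMM scaling or a prior count. Log2 ratios were computed with R 4.3.3 and edgeR 4.0.16 (TMM, prior count 2). Intervals were computed with SciPy 1.17.1 (Clopper-Pearson for a ratio, exact conditional for a ratio of ratios). Each gene was set against the 200 non-member genes nearest in mean CPM, by percentile, which is no p-value. Reads carry no molecular identifiers, so intervals cover counting error only. Positions, exon lengths and GC content are from GENCODE M21 (GRCm38, the build the name mm10 also denotes), with Cyr61 matched through its newer symbol. Promoters are from RefSeq. A comparison of proteins was planned and not made. The ratio calculation was tested on simulated data.

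The 32 genes and all lists were chosen with earlier results of these data known. Named genes are these 32, the 2 highest and 2 lowest ratios at 1 CPM or more of each pathway list, the up to 2 most abundant markers of a cell type and markers at 0 counts. Also named are all GABAergic markers, and those list genes that reached the minimum through 1 library alone. The marker list of mature oligodendrocytes holds a gene that is not reported here, so its values were left out. Alternatives were other scalings (totals alone, DESeq2 1.42.0), a prior count of 0.5, other level minimums, a 1.5-fold bound, 100 or 500 neighbours, totals without Rn45s and Lars2, and ratios with exon length and GC fitted out.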

Additional observations from a re-analysis of the deposited data

Results flagged for a closer look

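With 2 libraries, no check for an outlying sample was possible, and there was no second group to compare. Counts that the comparisons did not use lie on the lines that name no gene. Counts that met no annotated feature made up 16.7% in replicate 1 and 17.0% in replicate 2. Those that met several genes made up 2.61% and 2.56%, and those with more than 1 alignment 15.7% and 15.5%. None can be assigned to an effector gene.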

How the results depend on the processing

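No paired analysis was possible because the 2 libraries form 1 group. The median level of the 32 genes was 13.5 CPM, between 8.42 and 15.9 CPM with either library left out, and leaving one out allows no ratio. The count of genes at least 2-fold higher in replicate 2 was 17 under both other scalings, the smaller prior and a minimum of 20 counts. It was 18 with the length and GC fit, 18 with no minimum, 21 at 1.5-fold and 12 of 18 genes at a mean of 10 CPM, where 2.18% of all genes were called. The median log2 ratio stayed between 1.38 and 1.63. Genes at least 2-fold higher in replicate 1 numbered 0 with the length and GC fit and 0 at a mean of 10 CPM, against 1 otherwise. The count above the central 95% of neighbours was 16 or 17 in every setting, the change coming from Pim1 (98.5 with the fit, 97.8 among 500 genes). Library totals alone shifted the median of all genes to -0.10, and no gene past 2-fold changed sign in any setting. Depth limits Maff, Cyr61, Ier2, Ier3 and Plk3, whose lowest count in a library is between 1 and 34.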
